A study of Rattus norvegicus with 48 samples.

Results

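The response to the HIV protein Tat was described here in cultures that also received amlexanox. Rat brain cultures given Tat together with amlexanox (group Tat-Amlexanox, 3 libraries) were set against cultures given amlexanox alone (group Amlexanox, 3 libraries), so that the compound was present on both sides. These are 6 of the 48 RNA-seq libraries of the series, and the libraries were taken by their labels. Every gene in the table was a candidate: of 30211 genes, 15890 passed the minimum level and were tested.

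All libraries came from primary mixed cortical cultures of 18-day Sprague-Dawley rat fetuses, treated at 21 days in vitro, in a dish that holds neurons and glia without a vascular supply. Amlexanox was given at 25 µM. Recombinant Tat was given at 6 ng/ml for 48 h. The response without the compound was read in 3 untreated libraries (Control) and 3 libraries given Tat alone (Tat), at the same Tat dose. Further libraries received Tat with tazemetostat (3 µM) or senicapoc (1 µM), or Tat and amlexanox with cocaine (25 µM for 24 h, group Tat-Cocaine-Amlexanox). The labels number the replicates 1 to 3 but do not say that they came from separate dissections or animals, so the p-values measure only the spread between these samples, which may be technical. The labels call the cells neurons.

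Tat is the transcriptional activator of HIV. It is released by infected cells, is taken up by neighbouring brain cells, and is known to activate microglia and astrocytes through NF-kB, the transcription factor of inflammatory genes. Amlexanox is an anti-inflammatory small molecule known to inhibit the kinases Tbk1 and IKK-epsilon (gene Ikbke) and cyclic nucleotide phosphodiesterases. Tbk1 and IKK-epsilon phosphorylate the interferon regulatory factors, which switch on type I interferon and the genes that interferon induces. Neither compound nor Tat encodes a rat transcript, so no gene in the table checks the labels directly.

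Levels are given in CPM, the reads of a gene per 1000000 reads of its library, scaled between libraries by the authors. Fold changes are differences of group means of log2(CPM + 0.5) with their standard errors (SE), and this scale understates the change of genes near 0 CPM. A gene was called where its Benjamini-Hochberg adjusted p from limma, fitted over all 48 libraries, was under 0.05. The 6 libraries held about 17500000 to 27600000 assigned reads each, as recovered from the smallest steps in the table, and 9 to 14.4 of those reads made up 0.5 CPM.

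The cultures were mixed, as their markers showed. The summed level of 13 neuronal markers was 4391, 4155 and 5325 CPM in Amlexanox replicates 1, 2 and 3 and 2331, 2611 and 3416 CPM in Tat-Amlexanox, and that of 9 astrocyte markers was 5446 to 12970 CPM and 8935 to 9951 CPM. Microglial markers (13 genes) summed to 1487 to 2100 CPM in Amlexanox and 2181 to 2739 CPM in Tat-Amlexanox. Lymphocyte markers stayed at or under 0.104 CPM in the 6 libraries, and neutrophil markers summed to 0.376 to 0.815 CPM in Amlexanox and 5.71 to 10.7 CPM in Tat-Amlexanox. Of the neutrophil markers only S100a8 (means 0.343 and 7.01 CPM) and Camp (0.214 and 1.10 CPM) passed the minimum level. S100a9 and Mpo lay below it, and Elane and Mmp8 were at 0 in all 6 libraries, so this sum does not show neutrophils. In bulk RNA, fewer cells of a type and less RNA per cell cannot be told apart. The Amlexanox libraries varied among themselves, with mean correlations to the others of their group of 0.9819, 0.9878 and 0.9834. Amlexanox replicates 1 and 2 correlated most with the same-numbered libraries given senicapoc alone (0.9937 and 0.9946). Amlexanox replicate 1 had the highest astrocyte (12970 CPM) and oligodendrocyte precursor (539 CPM) sums and the lowest microglial sum (1487 CPM) of the 6. Amlexanox replicate 3 had the lowest astrocyte (5446 CPM) and ependymal (72.2 CPM) sums and the highest neuronal sum. Control replicate 2 had high interferon-stimulated genes without Tat, with Irf7 at 143 CPM against 7.30 and 25.9 CPM in the other Control libraries.

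Tat changed a large share of the measured transcriptome with amlexanox present. In Tat-Amlexanox, 3589 genes were higher (22.6% of those tested) and 2701 were lower (17% of those tested) than in Amlexanox, and 1134 of the higher and 439 of the lower genes changed at least 2-fold. Each count of list members below is to be read beside these 2 shares. Without Amlexanox replicate 3 the counts were 1910 and 1061, the lowest of any library left out. Under quantile normalization the balance turned, with 2971 higher and 3514 lower, so that 45.8% of calls were higher against 57.1% with the deposited scaling. Without the compound, Tat raised 2318 genes (14.6%) and lowered 1064 (6.7%). Of the genes higher under amlexanox, 1537 were also higher without it, which is 42.8% of the first set and 66.3% of the second. The genes lower in both numbered 404 (15% and 38%). These comparisons share no library.

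**Figure D1:**
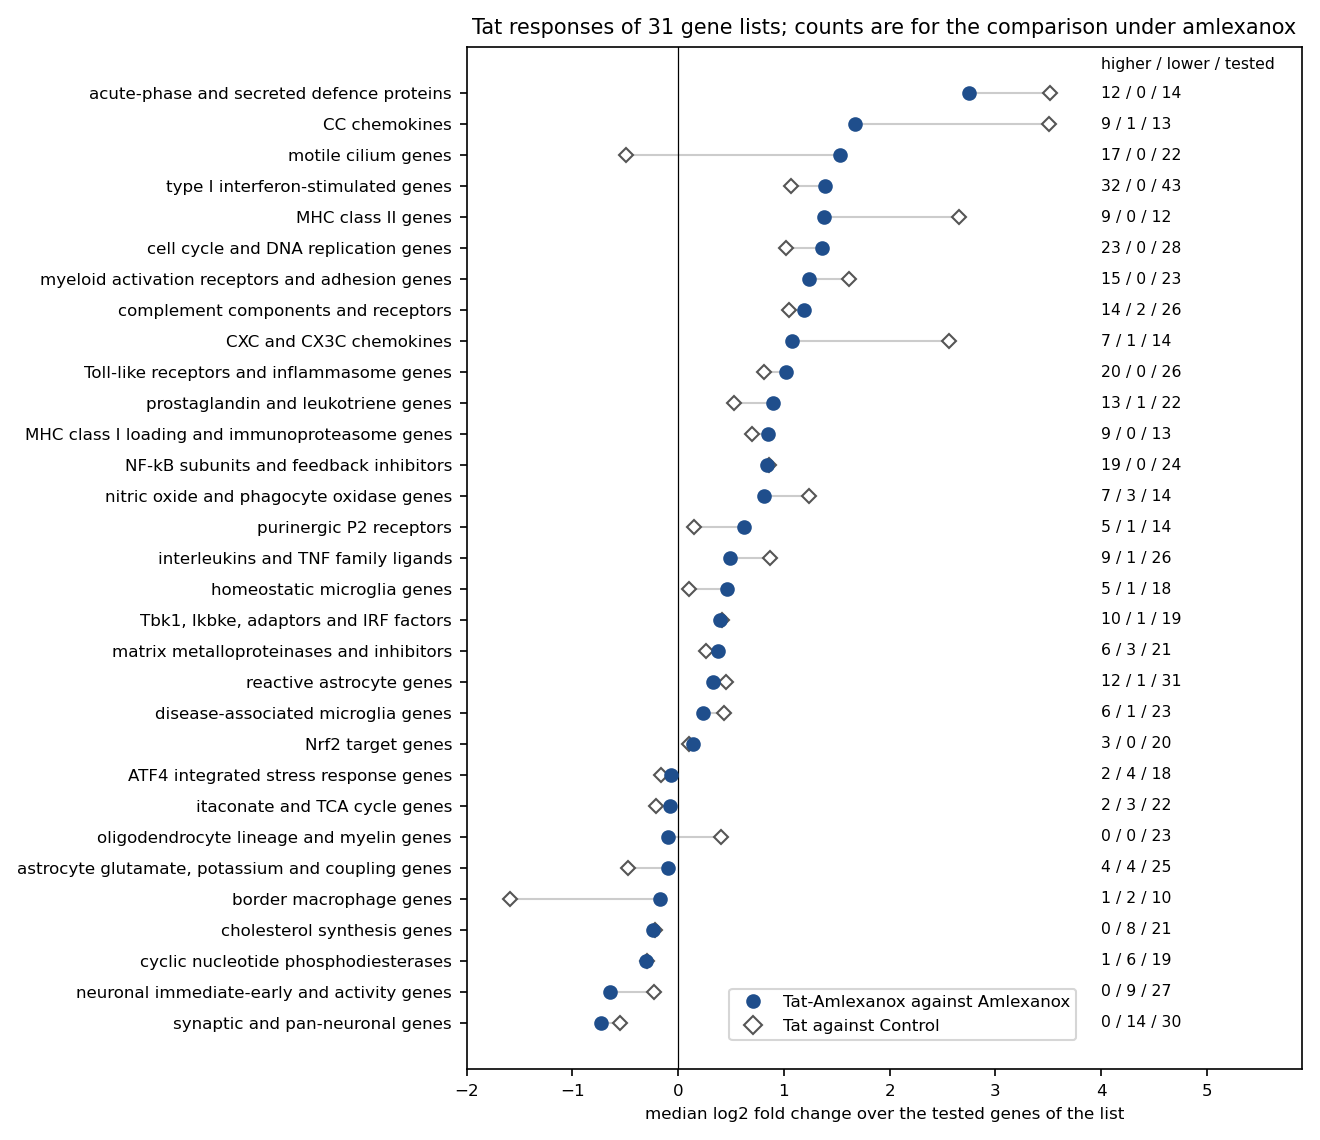
Median log2 fold change over the tested genes of 31 lists, for Tat-Amlexanox against Amlexanox (filled circles) and Tat against Control (open diamonds), with the numbers of members called higher, called lower and tested in the comparison under amlexanox printed at the right. Acute-phase, chemokine and interferon-stimulated genes lie to the right under both conditions, and the motile cilium list lies at 1.53 under amlexanox and at -0.489 without it.

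The genes with the largest rises were mostly secreted inflammatory proteins. Orm1, an acute-phase glycoprotein that binds small molecules in plasma, was at 0.251, 3.18 and 1.88 CPM in Amlexanox and 515, 608 and 345 CPM in Tat-Amlexanox (log2 fold change 7.99 ± 0.62 SE, adjusted p = 7.69e-11). Cxcl6, a chemokine that attracts neutrophils, went from 0.292, 0.310 and 0.278 CPM to 117, 121 and 39.2 CPM (log2 fold change 6.71 ± 0.86 SE, adjusted p = 1.44e-06). Cxcl13, which attracts B cells, was at 0.125, 0.349 and 0.487 CPM and 26.9, 88.4 and 67.5 CPM (log2 fold change 6.09 ± 0.53 SE, adjusted p = 1.06e-09). For all of these genes every Tat-Amlexanox library lay far above every Amlexanox library. Complement factor B (Cfb), of the alternative pathway, reached 5506, 8113 and 5085 CPM from 81.3, 119 and 99.9 CPM (log2 fold change 5.94 ± 0.54 SE, adjusted p = 2.82e-09). Cxcl9, a chemokine induced by interferon gamma, rose from 0.376, 2.75 and 2.78 to 111, 97.6 and 109 CPM (log2 fold change 5.65 ± 0.65 SE, adjusted p = 2.22e-07). Steap4, a metalloreductase of inflamed tissue, rose from 3.38, 3.49 and 6.26 to 229.6, 248 and 105 CPM (log2 fold change 5.27 ± 0.78 SE, adjusted p = 1.19e-05). Without the compound the same 6 genes had log2 fold changes of 8.78, 6.24, 6.88, 5.79, 6.00 and 6.33, and for none of them was the difference between the responses called.

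**Figure D2:**
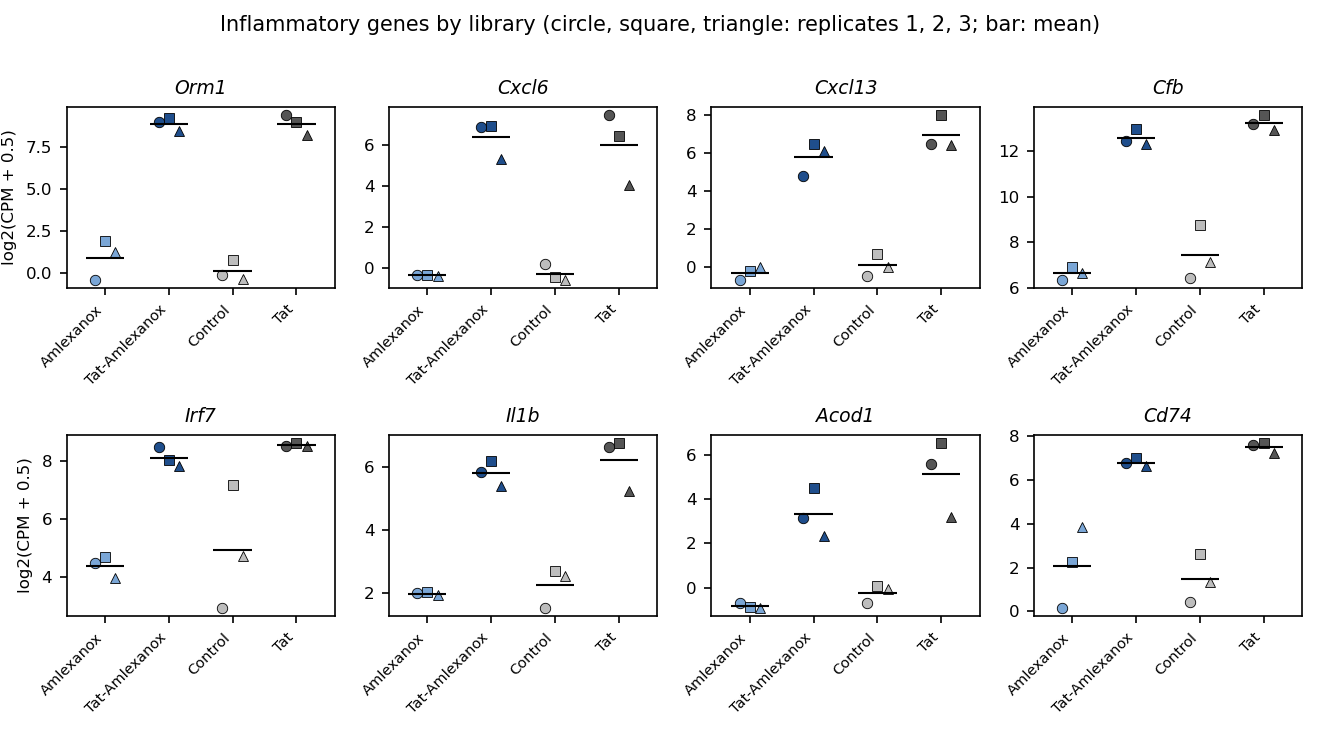
Level of 8 inflammatory genes on a log2(CPM + 0.5) axis in each library of Amlexanox, Tat-Amlexanox, Control and Tat, with circle, square and triangle for replicates 1, 2 and 3 and a bar for the mean. In each panel all 3 Tat-Amlexanox libraries lie above all 3 Amlexanox libraries.

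Some genes of the pathway that amlexanox inhibits had higher mRNA levels with Tat, and others did not pass. Tbk1 mRNA was at 34.7, 41 and 41.7 CPM in Amlexanox and 43.3, 43.3 and 40.9 CPM in Tat-Amlexanox, a difference that did not pass the test (log2 fold change 0.12 ± 0.07 SE, adjusted p = 0.155). Ikbke rose from 5.303, 4.5 and 5.22 to 12.3, 14.8 and 12.4 CPM (log2 fold change 1.31 ± 0.24 SE, adjusted p = 0.000216), with no overlap of the groups. Optn, an adaptor that binds Tbk1, rose from 63.02, 59.2 and 59.2 to 111, 108 and 93.2 CPM (log2 fold change 0.78 ± 0.14 SE, adjusted p = 0.000227). Sting1, the adaptor of cytosolic DNA sensing, was at 2.92, 4.5 and 3.41 and 10.96, 15.6 and 10.4 CPM (log2 fold change 1.63 ± 0.45 SE, adjusted p = 0.00573). Of 19 tested genes for these kinases, their adaptors and the interferon regulatory factors, 10 were higher and 1 was lower, where 22.6% of all tested genes were higher. The median log2 fold change of the 19 was 0.396, against 0.413 without the compound. These values are mRNA levels, and kinase activity was not measured here.

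Interferon-stimulated genes encode antiviral effectors and sensors. Of 43 tested, 32 were higher in Tat-Amlexanox and none was lower (median log2 fold change 1.39), where 22.6% of all tested genes were higher. Tat without the compound raised 21 of the 43 (median 1.07). Irf7, the interferon-induced master factor of type I interferon, was at 21.9, 25.5 and 15.2 CPM in Amlexanox and 352, 259 and 224 CPM in Tat-Amlexanox (log2 fold change 3.71 ± 0.59 SE, adjusted p = 3.23e-05). Parp9, a partner in interferon signalling, rose from 48.2, 47.6 and 35.2 to 136, 119 and 110.3 CPM (log2 fold change 1.48 ± 0.22 SE, adjusted p = 1.11e-05). Ifit3, an antiviral protein that binds viral RNA complexes, rose from 1.59, 11.6 and 5.15 to 64.2, 55.3 and 48.7 CPM (log2 fold change 3.43 ± 0.83 SE, adjusted p = 0.00229). The list was uneven. Isg15, a ubiquitin-like modifier, did not pass (log2 fold change 1.39 ± 0.58 SE, adjusted p = 0.0543), nor did Mx1, a GTPase that blocks viral replication (log2 fold change 1.05 ± 0.85 SE, adjusted p = 0.326), although both did under a replicate block fitted to the compared groups only (adjusted p = 0.00291 and 0.00617). Rsad2, which makes an antiviral nucleotide, was at 27.6, 304 and 167 CPM in Amlexanox and 84.1, 78.9 and 77.01 CPM in Tat-Amlexanox (log2 fold change -0.49 ± 0.90 SE, adjusted p = 0.682), and Cxcl10 at 3.51, 70.6 and 34.2 and 22.03, 31.5 and 21.8 CPM (log2 fold change 0.24 ± 0.96 SE, adjusted p = 0.861). For Rsad2 and Cxcl10 the Amlexanox libraries themselves spread widely, with replicate 1 lowest and replicate 2 highest. No member of the list was called for a difference between the Tat responses with and without amlexanox (median difference 0.231), nor without Control replicate 2 (median -0.371), while 5 were more positive without Control replicate 1 (median 0.843).

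The 250 bases before and 50 after each RefSeq gene start (build GRCr8) were searched for the core of the interferon-stimulated response element, GAAANNGAAA, on both strands. Of the 32 interferon-stimulated genes called higher, 23 had a promoter in the table, and 16 of them (69.6%) held the core, against 3.77% of all 27457 promoters and 2.91% of the 11225 promoters of tested genes. In 15 of the 16 the core lay wholly before the start. The stretches below show it in capitals in genes whose levels are given here or that belong to the same list, read on the gene's strand, 5′ to 3′. The stretches are drawn from the bases before the start. A capital run that begins with TTTC is the same core on the other strand.
Irf7 (chr1:205800068-205800107, minus strand): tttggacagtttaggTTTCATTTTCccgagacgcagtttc
Ifit3 (chr1:241527267-241527306, plus strand): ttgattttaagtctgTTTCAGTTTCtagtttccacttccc
Ifi44 (chr2:243303842-243303881, minus strand): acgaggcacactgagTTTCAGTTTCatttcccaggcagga
Ifih1 (chr3:67684003-67684042, minus strand): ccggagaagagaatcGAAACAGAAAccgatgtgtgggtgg
Parp14 (chr11:78408043-78408082, plus strand): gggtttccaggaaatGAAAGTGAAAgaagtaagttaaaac
The core begins between 26 and 76 bases before the start in these promoters. A match of letters is a description and not a measured binding site. The list was chosen as interferon-stimulated genes, and its members not called higher were not searched. The share therefore does not set members that rose with Tat against those that did not. None of the 11 promoters of chemokine genes called higher and none of the 9 of acute-phase genes held this core.

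Chemokines, the secreted attractants of leukocytes, rose broadly. Of 13 CC chemokines tested, 9 were higher and 1 was lower (median log2 fold change 1.67), where 22.6% of all tested genes were higher. Ccl20, which attracts dendritic and Th17 cells, went from 0.167, 1.59 and 1.496 CPM to 42.5, 54.6 and 28.3 CPM (log2 fold change 4.86 ± 0.54 SE, adjusted p = 1.24e-07). Ccl2, the main attractant of monocytes, was at 17.96, 98.7 and 95.5 CPM in Amlexanox and 415, 447 and 357 CPM in Tat-Amlexanox (log2 fold change 2.85 ± 0.64 SE, adjusted p = 0.00126). Ccl5, which attracts T cells, rose from 0.125, 4.07 and 3.79 to 24.5, 25.4 and 16.3 CPM (log2 fold change 3.26 ± 0.69 SE, adjusted p = 0.000743), and Ccl12 from 0.376, 0.388 and 0.487 to 16.1, 13.6 and 4.71 CPM (log2 fold change 3.55 ± 0.62 SE, adjusted p = 0.000104). Ccl3, a product of activated macrophages, was at 2.34, 2.73 and 2.86 and 10.9, 11.5 and 5.17 CPM (log2 fold change 1.55 ± 0.52 SE, adjusted p = 0.0205), and that call was lost without Amlexanox replicate 3 or Tat-Amlexanox replicate 1 or 2 (adjusted p up to 0.0844). Amlexanox replicate 1 was the lowest of its group for Ccl2, Ccl5 and Ccl20. Of 14 CXC and CX3C chemokines, 7 were higher and 1 was lower (median 1.08). Cxcl1, a neutrophil attractant, rose from 2.63, 13.8 and 14.6 to 96.5, 128 and 72.7 CPM (log2 fold change 3.46 ± 0.68 SE, adjusted p = 0.000361). Its relative Cxcl2 was at 0.0835, 1.36 and 1.04 and 2.003, 1.44 and 1.13 CPM and did not pass (log2 fold change 0.75 ± 0.61 SE, adjusted p = 0.326). Without the compound the medians of these chemokine lists were 3.51 and 2.56, with 10 members of each called higher.

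The promoters of the 11 chemokine genes called higher that had a RefSeq entry were searched for a kappa B core, GGGNNTTTCC on both strands, the letters that NF-kB is known to read. It was found in 3 of 11 (27.3%), against 1.51% of all promoters and 1.79% of those of tested genes. TATAAA, the TATA box, on the gene's strand was found in 4 of 11 chemokine promoters (36.4%) and 2 of 9 acute-phase promoters (22.2%), against 9.08% of all and 4.79% of those of tested genes. The cores of Cxcl6, Cxcl1 and Ccl20 and the TATA boxes of the strongly raised Cxcl13 and Orm1 are shown in capitals.
Cxcl6 (chr14:17596481-17596520, minus strand): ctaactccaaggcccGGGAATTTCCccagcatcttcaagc
Cxcl1 (chr14:17479381-17479420, minus strand): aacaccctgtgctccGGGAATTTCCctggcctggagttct
Ccl20 (chr9:91837055-91837094, plus strand): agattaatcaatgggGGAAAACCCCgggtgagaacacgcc
Cxcl13 (chr14:13917933-13917968, minus strand): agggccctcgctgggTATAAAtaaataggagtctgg
Orm1 (chr5:81788459-81788494, plus strand): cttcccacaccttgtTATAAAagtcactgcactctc
The kappa B core of Cxcl6 begins 88 bases before the start and that of Cxcl1 84 bases before it. With 11 promoters these shares are descriptions.

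Cytokines rose less uniformly. Of 26 interleukins and TNF family ligands tested, 9 were higher and 1 was lower (median 0.489, against 0.873 without the compound). The share of all tested genes that was higher was 22.6%. Il1b, the main inflammasome cytokine, rose from 3.47, 3.57 and 3.27 CPM to 56.7, 72.6 and 41.1 CPM (log2 fold change 3.83 ± 0.50 SE, adjusted p = 2.16e-06). Il1rn, the antagonist of its receptor, rose from 1.25, 2.83 and 4.31 to 39.1, 77.5 and 43.5 CPM (log2 fold change 4.08 ± 0.54 SE, adjusted p = 2.09e-06). Il1a was at 1.71, 1.47 and 2.82 and 9.402, 8.63 and 5.63 CPM (log2 fold change 1.75 ± 0.40 SE, adjusted p = 0.00151), and Il18 at 3.65, 5.18 and 3.97 and 14.9, 15.2 and 9.397 CPM (log2 fold change 1.5 ± 0.41 SE, adjusted p = 0.00545). Il6 was low, at 0.585, 1.67 and 0.522 CPM in Amlexanox and 3.45, 3.8 and 2.398 CPM in Tat-Amlexanox (log2 fold change 1.45 ± 0.52 SE, adjusted p = 0.0265), and it did not pass without Amlexanox replicate 1 or 3 or Tat-Amlexanox replicate 1 or 2 (adjusted p up to 0.113). Il10, an anti-inflammatory cytokine, stayed under 1 CPM in all 6 libraries, at 0.0835, 0 and 0.0348 and 0.835, 0.411 and 0.436 CPM (log2 fold change 0.96 ± 0.25 SE, adjusted p = 0.00369). Il11 was the member that fell, from 1.42, 1.75 and 5.08 to 1.17, 0.565 and 0.523 CPM (log2 fold change -1.24 ± 0.32 SE, adjusted p = 0.00351), and it did not pass without Amlexanox replicate 3 (adjusted p = 0.0745) or under a replicate block fitted to the compared groups only (adjusted p = 0.0517). Csf3, the granulocyte growth factor, was at 0, 0.0388 and 0 and 0.389, 1.13 and 0.131 CPM and did not pass (log2 fold change 0.92 ± 0.39 SE, adjusted p = 0.0583), although it did with a replicate block over all 48 libraries (adjusted p = 0.0182). Tnf lay below the minimum level and was not tested.

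Signalling genes upstream of these secreted proteins rose too. Of 24 NF-kB subunits and feedback inhibitors, 19 were higher and none was lower (median 0.84), where 22.6% of all tested genes were higher. Nfkbiz, a nuclear co-factor that licenses secondary response genes, rose from 13.03, 18.04 and 17.3 CPM to 106, 137 and 109.8 CPM (log2 fold change 2.83 ± 0.31 SE, adjusted p = 1.12e-07). Nfkbia, the inhibitor that holds NF-kB in the cytoplasm, rose from 71.95, 131 and 105 to 249, 299.9 and 237 CPM (log2 fold change 1.38 ± 0.31 SE, adjusted p = 0.00129). Tnip3, a partner of the A20 brake, went from 0.0835, 0 and 0.104 to 4.84, 5.91 and 3.53 CPM (log2 fold change 3.20 ± 0.45 SE, adjusted p = 6.09e-06). Of 26 Toll-like receptor and inflammasome genes, 20 were higher and none was lower (median 1.02), and 13 were higher without Tat-Amlexanox replicate 2. Tlr1, a receptor of bacterial lipopeptides, rose from 1.002, 1.67 and 1.84 to 16.7, 22.9 and 11.9 CPM (log2 fold change 3.12 ± 0.56 SE, adjusted p = 0.000152), and Cd14, the co-receptor of lipopolysaccharide, from 14.8, 12.2 and 19.3 to 138, 184 and 71.6 CPM (log2 fold change 2.97 ± 0.64 SE, adjusted p = 0.000863). Irak3, which restrains receptor signalling, was at 10.5, 8.11 and 8.28 and 42.9, 51.3 and 32.1 CPM (log2 fold change 2.15 ± 0.35 SE, adjusted p = 3.86e-05). Gsdmd, the pore of pyroptosis, rose from 17.04, 17.6 and 12.2 to 32.8, 28.9 and 27.6 CPM (log2 fold change 0.92 ± 0.14 SE, adjusted p = 1.35e-05). Nlrp3, the inflammasome sensor, was at 12.9, 14.7 and 15.6 and 31.9, 35.5 and 23.8 CPM (log2 fold change 1.04 ± 0.39 SE, adjusted p = 0.0338), a call lost when any library but Tat-Amlexanox replicate 3 was left out (adjusted p up to 0.114). The medians of these lists without the compound were 0.86 and 0.808.

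Acute-phase and complement genes were higher too. Of 14 acute-phase and secreted defence proteins tested, 12 were higher and none was lower (median 2.75, against 3.52 without the compound). Among all tested genes 22.6% were higher. Lcn2, an iron-trapping protein of reactive astrocytes, was at 102, 386 and 336 CPM in Amlexanox and 7631, 11059 and 7367 CPM in Tat-Amlexanox (log2 fold change 5.17 ± 0.79 SE, adjusted p = 2.05e-05). Slpi, a protease inhibitor, went from 0.0418, 1.3 and 3.29 to 29.1, 61.95 and 49.8 CPM (log2 fold change 4.87 ± 0.59 SE, adjusted p = 5.00e-07), and haptoglobin (Hp) from 1.13, 1.24 and 1.22 to 13.2, 12.7 and 13.4 CPM (log2 fold change 3.00 ± 0.43 SE, adjusted p = 9.12e-06). Of 26 complement components and receptors, 14 were higher and 2 were lower (median 1.19, against 1.05). C3, the central component, rose from 903, 926 and 816 to 6775, 6929.8 and 4730.1 CPM (log2 fold change 2.78 ± 0.45 SE, adjusted p = 4.67e-05). C1s, a protease of the classical pathway, rose from 259, 231 and 137 to 2129, 2195 and 1418 CPM (log2 fold change 3.22 ± 0.37 SE, adjusted p = 2.37e-07). C1qa, made by microglia, was at 419, 762 and 692 and 591, 724 and 656 CPM with overlapping groups (log2 fold change 0.12 ± 0.44 SE, adjusted p = 0.852). C5ar1, the receptor of the C5a fragment, rose from 7.35, 5.39 and 5.57 to 33.99, 32.1 and 21.3 CPM (log2 fold change 2.15 ± 0.46 SE, adjusted p = 0.000817).

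Antigen presentation genes were higher. Of 12 MHC class II genes tested, which display peptides to helper T cells, 9 were higher and none was lower (median 1.38, against 2.66 without the compound). Among all tested genes 22.6% were higher. Cd74, the invariant chain, was at 0.626, 4.31 and 13.8 CPM in Amlexanox and 106, 125 and 97.7 CPM in Tat-Amlexanox (log2 fold change 4.68 ± 0.67 SE, adjusted p = 8.76e-06). RT1-Db1, a class II chain, was at 0.251, 1.01 and 4.96 and 7.54, 11.01 and 10.8 CPM (log2 fold change 2.47 ± 0.43 SE, adjusted p = 0.000104). Amlexanox replicate 3 was the highest of its group for both. Ciita, the master regulator of class II, went from 0.0418, 0.233 and 0.278 to 2.39, 5.19 and 2.44 CPM (log2 fold change 2.43 ± 0.44 SE, adjusted p = 0.000146). Of 13 genes of class I loading and the immunoproteasome, 9 were higher and none was lower (median 0.853), with 3 to 5 called when Amlexanox replicate 1 or 3 or Tat-Amlexanox replicate 1 or 2 was left out. B2m, the class I light chain, rose from 1004, 1826 and 1388 to 5001, 4408 and 4377 CPM (log2 fold change 1.75 ± 0.22 SE, adjusted p = 1.41e-06), and Erap1, which trims peptides, from 50.7, 66.6 and 43.9 to 99.4, 113 and 82.5 CPM (log2 fold change 0.87 ± 0.19 SE, adjusted p = 0.00079). RT1 genes are near copies of one another, and only uniquely mapped reads were counted, so the values of single RT1 genes are uncertain.

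Macrophage and microglial genes moved unevenly by class. Of 23 myeloid activation receptors and adhesion genes, 15 were higher and none was lower (median 1.24), and 9 were higher without Tat-Amlexanox replicate 2. Clec4d, a lectin receptor of activated macrophages, went from 0.0835, 0.466 and 0.348 CPM to 5.51, 8.63 and 4.58 CPM (log2 fold change 3.06 ± 0.38 SE, adjusted p = 8.14e-07). Selp, P-selectin, was listed at 0 in every Amlexanox library and at 1.78, 0.924 and 1.66 CPM in Tat-Amlexanox (adjusted p = 5.23e-05). Aif1, the microglial marker Iba1, was at 29.98, 72.8 and 54.8 and 141, 222 and 112 CPM (log2 fold change 1.61 ± 0.60 SE, adjusted p = 0.0324), and Itgam, its integrin companion, at 55.8, 78.8 and 90.8 and 163, 208 and 157 CPM (log2 fold change 1.24 ± 0.39 SE, adjusted p = 0.014). The groups did not overlap for either, but the call of Aif1 was lost without Amlexanox replicate 1 or 3 or Tat-Amlexanox replicate 1 or 2 (adjusted p up to 0.129) and that of Itgam without Amlexanox replicate 1 or Tat-Amlexanox replicate 2 (up to 0.0611). Of 18 homeostatic microglial genes, 5 were higher and 1 was lower (median 0.458), a share of higher genes close to the 22.6% of all genes. The count was 2 or 3, with none lower, without Amlexanox replicate 1 or 3 or Tat-Amlexanox replicate 1 or 2, and 9 once the replicate number entered a fit to the compared groups as a block. Olfml3, a secreted homeostatic protein, rose from 17.6, 5.39 and 3.41 to 51.96, 42.4 and 35.6 CPM (log2 fold change 2.54 ± 0.46 SE, adjusted p = 0.000146), and the microglial factor Sall1 from 51.8, 36.97 and 26.4 to 68.9, 63.7 and 59.7 CPM (log2 fold change 0.78 ± 0.17 SE, adjusted p = 0.00119). P2ry12, the purinergic receptor of resting microglia, was at 6.598, 14.1 and 6.904 and 10.8, 16.2 and 9.11 CPM (log2 fold change 0.42 ± 0.58 SE, adjusted p = 0.583).

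Of 23 disease-associated microglial genes, 6 were higher and 1 was lower (median 0.233), a share of higher genes close to the 22.6% of all genes. The count of higher genes was 10 under a replicate block fitted to the compared groups only. Csf1, a microglial growth factor, rose from 84.02, 69.98 and 49.9 CPM to 221, 255 and 169.9 CPM (log2 fold change 1.67 ± 0.29 SE, adjusted p = 0.000105), and the inhibitory receptor gene Lilrb4 from 4.84, 4.81 and 9.22 to 27.1, 20.5 and 15.4 CPM (log2 fold change 1.69 ± 0.33 SE, adjusted p = 0.000377). Igf1 was the member that fell, from 34.1, 41.6 and 47.1 to 24.3, 22.8 and 25.7 CPM (log2 fold change -0.73 ± 0.28 SE, adjusted p = 0.0367), and its call was lost without Amlexanox replicate 2 or 3 or Tat-Amlexanox replicate 1 or 2 (adjusted p up to 0.14). Of 10 genes of border macrophages, which line brain vessels and meninges, 2 were lower and 1 was higher (median -0.175), a share of lower genes close to the 17% of all genes. The count of lower genes was 1 without Amlexanox replicate 3 or Tat-Amlexanox replicate 1 or 2 and 4 under a replicate block fitted to the compared groups only. Pf4, a chemokine of these cells, fell from 78.6, 57.1 and 45.7 to 33.3, 21.2 and 21.6 CPM (log2 fold change -1.23 ± 0.36 SE, adjusted p = 0.00875). Cd163, the haemoglobin scavenger receptor, fell from 33.6, 34.3 and 40.2 to 9.85, 7.19 and 13.04 CPM (log2 fold change -1.83 ± 0.62 SE, adjusted p = 0.0213), a call lost without Amlexanox replicate 3 or Tat-Amlexanox replicate 1 or 2 (adjusted p up to 0.084). Ms4a7 rose from 3.696, 6.36 and 9.95 to 13.9, 30.1 and 19.5 CPM (log2 fold change 1.62 ± 0.55 SE, adjusted p = 0.021), lost without Amlexanox replicate 1 or Tat-Amlexanox replicate 2 (adjusted p up to 0.102). Tat without the compound lowered 5 of the 10 (median -1.59). The summed microglial markers ran at 1487 to 2100 CPM in Amlexanox and 2181 to 2739 CPM in Tat-Amlexanox. Several of these markers are also members of the microglial lists. Their part in these results was not tested.

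Among metabolic genes tied to activated macrophages, the oxidant and prostaglandin lists had positive medians and the itaconate and TCA cycle list a median near 0. Acod1, the enzyme that makes itaconate from cis-aconitate, was at 0.125, 0.0388 and 0.0348 CPM in Amlexanox and 8.46, 22.03 and 4.54 CPM in Tat-Amlexanox (log2 fold change 4.15 ± 0.82 SE, adjusted p = 0.000434). It reached 47.5, 92.2 and 8.75 CPM with Tat alone, and the difference between the responses did not pass (difference of log2 fold changes -1.19 ± 1.17 SE, adjusted p = 0.639). Of 22 itaconate and TCA cycle genes, 2 were higher and 3 were lower (median -0.08), and 5 were lower with the replicate block over all 48 libraries. In the main fit neither share was above that of all tested genes (22.6% higher and 17% lower). Of 14 nitric oxide and phagocyte oxidase genes, 7 were higher and 3 were lower (median 0.808), a share of lower genes close to the 17% of all genes. Sod2, the mitochondrial superoxide dismutase, rose from 187, 647 and 590.2 to 3289.5, 3782 and 2787 CPM (log2 fold change 2.97 ± 0.44 SE, adjusted p = 1.11e-05), and Cybb, the catalytic subunit of the phagocyte oxidase, from 84.9, 74.2 and 97.2 to 428, 501 and 369 CPM (log2 fold change 2.33 ± 0.41 SE, adjusted p = 0.000111). Of 22 prostaglandin and leukotriene genes, 13 were higher and 1 was lower (median 0.898). Ptgs1, the constitutive cyclooxygenase, rose from 19, 12.1 and 18.9 to 59.6, 52.3 and 49.1 CPM (log2 fold change 1.68 ± 0.26 SE, adjusted p = 2.83e-05), and the prostaglandin synthase gene Ptges2 from 36.3, 37.01 and 39.7 to 53.1, 60.6 and 57.9 CPM (log2 fold change 0.60 ± 0.09 SE, adjusted p = 2.88e-05). Ptgs2, the inducible cyclooxygenase, was at 25.9, 5.24 and 7.69 and 7.29, 8.52 and 11.9 CPM and did not pass (log2 fold change -0.17 ± 0.51 SE, adjusted p = 0.811).

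Among astrocyte genes, the reactive list held mostly higher calls, and the list for glutamate and potassium handling held no excess of calls. Of 31 reactive astrocyte genes, 12 were higher and 1 was lower (median 0.334). Osmr, the oncostatin M receptor, rose from 31.4, 30.9 and 23.9 CPM to 163, 242 and 176 CPM (log2 fold change 2.72 ± 0.29 SE, adjusted p = 6.75e-08). Serping1, the inhibitor of C1 proteases, rose from 203, 341 and 301 to 2585, 3326 and 2580.3 CPM (log2 fold change 3.35 ± 0.40 SE, adjusted p = 5.00e-07). Gfap, the intermediate filament that defines reactive astrocytes, was at 7351, 4677 and 2872 and 4878, 4148 and 3841 CPM with overlapping groups (log2 fold change -0.12 ± 0.26 SE, adjusted p = 0.739), while Amlexanox spread from 7351 to 2872 CPM among its own libraries. Of 25 genes for glutamate and potassium handling and coupling, 4 were higher and 4 were lower (median -0.1, which turned to 0.0846 without Amlexanox replicate 1 and 0.126 without Tat-Amlexanox replicate 3). Neither share was above that of all tested genes (22.6% higher and 17% lower). Aqp4, the water channel of astrocyte endfeet, rose from 1280.0, 1139 and 626 to 1871, 1968 and 1796 CPM (log2 fold change 0.95 ± 0.16 SE, adjusted p = 6.25e-05), and Slc6a11, a GABA transporter, fell from 25.01, 21.8 and 22.7 to 9.96, 9.04 and 10.4 CPM (log2 fold change -1.20 ± 0.19 SE, adjusted p = 3.10e-05). Without the compound Aqp4 did not pass, at means of 1672 CPM in Control and 1938 CPM in Tat (log2 fold change 0.21 ± 0.16 SE, adjusted p = 0.355). Every Amlexanox library lay under every Control and Tat library for Aqp4. Its difference between the responses did not pass (adjusted p = 0.0676). Slc6a11 fell without the compound too (log2 fold change -0.82 ± 0.19 SE, adjusted p = 0.00177). Astrocyte markers, several of which are also members of these lists, summed to 12970, 8421 and 5446 CPM in Amlexanox. Their part in the astrocyte results was not tested.

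Neuronal genes were lower. Of 30 synaptic and pan-neuronal genes, 14 were lower and none was higher (median -0.732), where 17% of all tested genes were lower. Dlg4, the postsynaptic scaffold PSD-95, was at 264, 249 and 335 CPM in Amlexanox and 166, 198 and 211 CPM in Tat-Amlexanox (log2 fold change -0.55 ± 0.17 SE, adjusted p = 0.0118). Syn2, a synaptic vesicle protein, was at 99.3, 116 and 128 and 38.5, 52.5 and 69.6 CPM (log2 fold change -1.12 ± 0.33 SE, adjusted p = 0.00934), and synaptophysin (Syp) at 388, 372 and 483 and 170.2, 208 and 274 CPM (log2 fold change -0.95 ± 0.34 SE, adjusted p = 0.0256). Map2, the dendritic microtubule protein, was at 678, 532 and 795 and 418, 397 and 478 CPM (log2 fold change -0.62 ± 0.23 SE, adjusted p = 0.032). In each of these genes all Tat-Amlexanox libraries lay under all Amlexanox libraries. Slc17a7, the vesicular glutamate transporter, and Gad2, which makes GABA, had log2 fold changes of -0.94 and -0.82 and did not pass (adjusted p = 0.0796 and 0.077), but both passed with the replicate block over all 48 libraries (adjusted p = 0.0377 and 0.0493). The single calls were lost without Tat-Amlexanox replicate 1 for all 4 named genes, and without Amlexanox replicate 3 for Dlg4, Syp and Map2 (adjusted p up to 0.0671 for Syn2, 0.0954 for Dlg4, 0.115 for Syp and 0.159 for Map2). The count of lower genes was 1 of 30 without Amlexanox replicate 3, 0 without Tat-Amlexanox replicate 1, 3 without Tat-Amlexanox replicate 2 and 9 without Amlexanox replicate 2, while the median stayed between -0.601 and -0.802 in these fits. Under a replicate block fitted to the compared groups only, 25 were lower. Tat without the compound lowered 2 of the 30 (median -0.546), and no member was called for a difference between the responses. All 13 neuronal markers are also members of this list, so their sum (4155 to 5325 CPM against 2331 to 3416 CPM) is not a separate reading. Of these 13 markers 5 were lower, and the part of cell composition was not tested.

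Activity-dependent genes, which neurons switch on when they fire, were lower too. Of 27 immediate-early and activity genes, 9 were lower and none was higher (median -0.648), where 17% of all tested genes were lower. The count of lower genes was 1 to 3 when Amlexanox replicate 3 or Tat-Amlexanox replicate 1 or 2 was left out. Under a replicate block fitted to the compared groups only, 15 were lower. Nr4a1, an orphan nuclear receptor, fell from 51.4, 25.3 and 43.8 CPM to 14.97, 17.6 and 23.3 CPM (log2 fold change -1.05 ± 0.27 SE, adjusted p = 0.00407), against 29.6, 19.95 and 15.3 CPM in Control and 22.7, 14.4 and 17.1 CPM in Tat. Dusp1, a phosphatase that ends MAP kinase signalling, was at 44.5, 38.4 and 47.5 and 22.98, 26.5 and 31.9 CPM (log2 fold change -0.68 ± 0.21 SE, adjusted p = 0.0114). Fos, the prototype of the class, was at 66.4, 49.7 and 60.5 and 36.6, 39.9 and 44.7 CPM (log2 fold change -0.53 ± 0.19 SE, adjusted p = 0.0245), and its Control libraries were at 34.01, 29.5 and 22.2 CPM. The calls of Dusp1 and Fos were both lost without Amlexanox replicate 3 or Tat-Amlexanox replicate 1 (adjusted p up to 0.0688 and 0.0979). For Nr4a1 and Fos the Amlexanox libraries were the highest of the 4 groups by mean. Bdnf, a neurotrophin, was at 129, 65.2 and 126 and 30.1, 31.01 and 60.8 CPM and did not pass (log2 fold change -1.40 ± 0.71 SE, adjusted p = 0.11), although it did under a replicate block fitted to the compared groups only (adjusted p = 0.0042). Without the compound Tat raised 4 members of this list and lowered none (median -0.226).

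Genes of motile cilia, the beating appendages of ependymal cells that move cerebrospinal fluid, rose with Tat when amlexanox was present. Of 22 tested, 17 were higher and none was lower (median 1.53), where 22.6% of all tested genes were higher. Without Amlexanox replicate 3, 10 were higher and 1 was lower (median 1.21). Spag6l, an axoneme protein, was at 18.9, 17.7 and 7.44 CPM in Amlexanox, 79.3, 76.9 and 49.3 CPM in Tat-Amlexanox, 29.6, 48.2 and 82.4 CPM in Control and 47.5, 45.2 and 34.1 CPM in Tat (log2 fold change 2.26 ± 0.43 SE, adjusted p = 0.000296). Tppp3, a tubulin-binding protein, was at 75.7, 74.2 and 29.3 and 341, 366 and 189 CPM (log2 fold change 2.37 ± 0.46 SE, adjusted p = 0.000347). Hydin, a central pair protein, was at 23.7, 16.7 and 7.27, 49.5, 68.9 and 40.8, 43.2, 70.4 and 96.7 and 49.1, 45.6 and 34.6 CPM in the same order of groups (log2 fold change 1.82 ± 0.42 SE, adjusted p = 0.00159). For these genes every Amlexanox library lay under every library of the other groups, with replicate 3 lowest, and for Spag6l and Hydin the Tat-Amlexanox libraries lay in the range of Control and Tat. Tat without the compound raised none of the 22 and lowered 2 (median -0.489). The difference between the responses was positive and called for 9 of the 22 (where 1.41% of all genes were), although in a fit to these 4 groups alone no gene at all was called. All 4 tested ependymal markers were higher, but they are also members of this list and so are not a separate reading. Their sum ran at 160.9, 138.1 and 72.2 CPM in Amlexanox and 491.4, 524.9 and 297.8 CPM in Tat-Amlexanox. The part of cell composition was not tested.

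**Figure D3:**
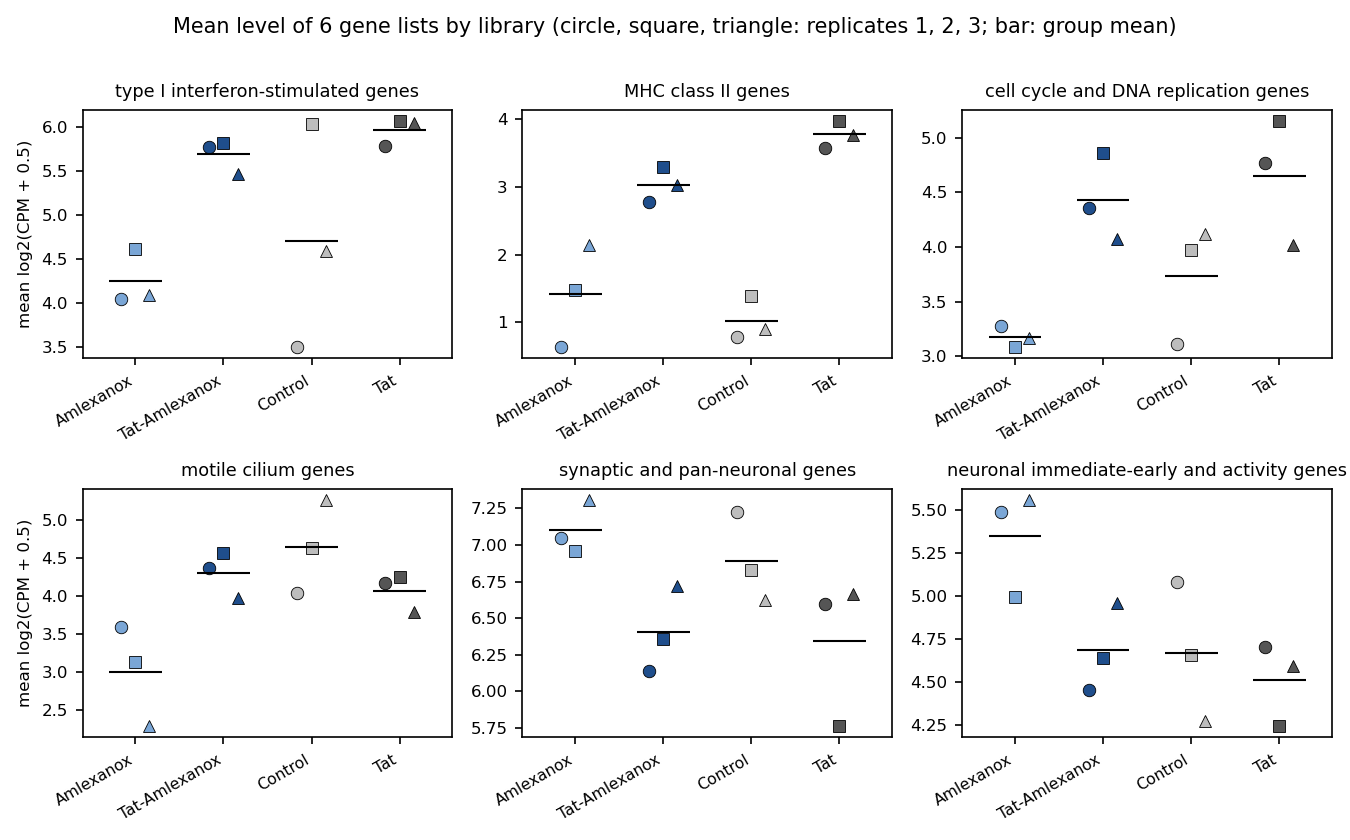
Mean log2(CPM + 0.5) over the tested genes of 6 lists in each library of Amlexanox, Tat-Amlexanox, Control and Tat, with circle, square and triangle for replicates 1, 2 and 3 and a bar for the group mean. The 3 Amlexanox libraries are the lowest for motile cilium genes and all lie above the 3 Tat-Amlexanox libraries for synaptic genes, and for interferon-stimulated genes Control replicate 2 lies among the libraries given Tat.

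Proliferation genes were higher and sterol synthesis genes lower. Of 28 cell cycle and DNA replication genes, 23 were higher and none was lower (median 1.36, against 1.02 without the compound), and 12 were higher without Tat-Amlexanox replicate 2. Among all tested genes 22.6% were higher and 17% lower. Mcm4, a replicative helicase subunit, rose from 18.6, 22.1 and 20.1 CPM to 42.5, 49.8 and 39.3 CPM (log2 fold change 1.09 ± 0.19 SE, adjusted p = 0.000102), and Tpx2, a spindle factor, from 6.85, 7.49 and 8.38 to 26.4, 42.8 and 23.5 CPM (log2 fold change 1.92 ± 0.36 SE, adjusted p = 0.000273). Mki67, the marker of cycling cells, was at 11.1, 9.698 and 15.4 and 46.4, 65.7 and 39.2 CPM (log2 fold change 2.01 ± 0.47 SE, adjusted p = 0.00176). Of 21 cholesterol synthesis genes, 8 were lower and none was higher (median -0.238), and 1 to 5 were lower when Tat-Amlexanox replicate 1 or 3 or Amlexanox replicate 1 or 2 was left out. Cyp51, a sterol demethylase, fell from 208, 251 and 211 to 128, 140.5 and 125 CPM (log2 fold change -0.76 ± 0.15 SE, adjusted p = 0.000412).

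Phosphodiesterases, the other known targets of amlexanox, end cyclic AMP and cyclic GMP signals. Of 19 tested, 1 was higher and 6 were lower (median -0.306), where 17% of all tested genes were lower. The count of lower genes was 2 or 3 without Amlexanox replicate 3 or Tat-Amlexanox replicate 1 or 2. Pde5a, which degrades cyclic GMP, rose from 13.03, 8.19 and 7.58 CPM to 20.4, 20.2 and 20.5 CPM (log2 fold change 1.09 ± 0.22 SE, adjusted p = 0.000481). Pde2a, an enzyme of both nucleotides, fell from 173, 177 and 194 to 67.5, 81.8 and 109 CPM (log2 fold change -1.10 ± 0.30 SE, adjusted p = 0.00539). Pde4b, a cyclic AMP enzyme of inflammatory cells, was at 32.4, 52.8 and 52.6 and 51.9, 79.2 and 75.9 CPM and did not pass (log2 fold change 0.59 ± 0.25 SE, adjusted p = 0.0595), although it did with the replicate block over all 48 libraries (adjusted p = 0.0377), against 38.8, 39.4 and 21.7 CPM in Control and 97.7, 113 and 104 CPM in Tat. Of 14 purinergic P2 receptors, which sense extracellular nucleotides, 5 were higher and 1 was lower (median 0.626), where 22.6% of all tested genes were higher. Under a replicate block fitted to the compared groups only, 8 were higher. P2ry6, the UDP receptor of microglia, rose from 11.5, 11.6 and 14.3 to 61.6, 80.5 and 51.8 CPM (log2 fold change 2.31 ± 0.48 SE, adjusted p = 0.000608), and P2ry2 from 2.005, 2.33 and 2.504 to 6.51, 8.88 and 7.41 CPM (log2 fold change 1.54 ± 0.29 SE, adjusted p = 0.000282). P2rx7, the ATP-gated channel upstream of the inflammasome, was at 3.97, 4.73 and 3.79 and 5.51, 8.47 and 4.97 CPM and did not pass (log2 fold change 0.52 ± 0.22 SE, adjusted p = 0.0551), although it did with the same block over all 48 libraries (adjusted p = 0.00814).

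Stress response and matrix lists gave shares of calls near or below that of all genes. Of 20 Nrf2 target genes, 3 were higher and none was lower (median 0.14). Abcc1, an exporter, rose from 24.9, 24.2 and 20.4 CPM to 33.9, 37.3 and 32.7 CPM (log2 fold change 0.57 ± 0.12 SE, adjusted p = 0.000481), and Gsta4, a glutathione transferase, from 56.9, 56.6 and 42.2 to 95.03, 70.04 and 88.3 CPM (log2 fold change 0.70 ± 0.16 SE, adjusted p = 0.00159). Of 18 genes of the ATF4 stress response, 2 were higher and 4 were lower (median -0.0668). The 2 that rose were Cebpb, a transcription factor that inflammation also induces, from 40.8, 55.2 and 63.3 to 133, 159 and 126 CPM (log2 fold change 1.40 ± 0.22 SE, adjusted p = 2.30e-05), and Ddit3, from 23.9, 48.8 and 51.6 to 77.9, 71.4 and 61.8 CPM (log2 fold change 0.83 ± 0.28 SE, adjusted p = 0.0187). The call of Ddit3 was lost without Amlexanox replicate 1 or Tat-Amlexanox replicate 1 or 2 (adjusted p up to 0.17), and the count of lower genes was 1 or 0 in 4 of the 6 fits that left out a library and 2 under a replicate block fitted to the compared groups only. Of 21 matrix metalloproteinases and inhibitors, 6 were higher and 3 were lower (median 0.374), and 3 were higher without Amlexanox replicate 3 (median 0.0902). Mmp9, a gelatinase, rose from 2.34, 2.44 and 2.12 to 16.2, 17.8 and 24.4 CPM (log2 fold change 2.81 ± 0.55 SE, adjusted p = 0.000371), and Mmp24 fell from 74.5, 61.5 and 83.3 to 41.6, 47.8 and 51.1 CPM (log2 fold change -0.63 ± 0.14 SE, adjusted p = 0.000893). None of the 23 oligodendrocyte lineage and myelin genes was called (median -0.0918), although 2 were higher in fits to the compared groups. Their levels varied among replicates, as the marker sum of 477.6 to 1812 CPM in Amlexanox shows.

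The largest falls included a hormone receptor, a neuropeptide and a macrophage lectin. Gfral, the receptor of the hormone Gdf15, was at 2.55, 2.64 and 4.97 CPM in Amlexanox and 0.223, 0.205 and 0.349 CPM in Tat-Amlexanox (log2 fold change -2.31 ± 0.46 SE, adjusted p = 0.000481). Grp, gastrin-releasing peptide, fell from 6.26, 6.36 and 8.56 to 0.612, 1.03 and 1.701 CPM (log2 fold change -2.27 ± 0.38 SE, adjusted p = 5.65e-05). Dipk1c fell from 6.01, 6.28 and 5.25 to 0.668, 0.668 and 1.57 CPM (log2 fold change -2.16 ± 0.33 SE, adjusted p = 1.77e-05). Ca12, a carbonic anhydrase, fell from 15.3, 26.5 and 16.97 to 2.003, 4.36 and 6.803 CPM (log2 fold change -2.13 ± 0.58 SE, adjusted p = 0.00524). Fcna, a ficolin of macrophages, fell from 61.7, 93.2 and 92.9 to 16.3, 18.4 and 22.9 CPM (log2 fold change -2.06 ± 0.41 SE, adjusted p = 0.000404), and it fell as well without the compound (log2 fold change -2.26 ± 0.41 SE, adjusted p = 9.88e-05). Dcn, the proteoglycan decorin, fell from 3.42, 6.87 and 15.3 to 1.502, 1.13 and 1.13 CPM (log2 fold change -2.14 ± 0.52 SE, adjusted p = 0.00231), with Amlexanox replicate 3 the highest library. All 6 were lower in every Tat-Amlexanox library than in any Amlexanox library. Without the compound Gfral and Dipk1c also fell (log2 fold change -1.95 and -1.20, adjusted p = 0.00242 and 0.00734). Grp, Dcn and Ca12 did not pass there (-0.64, -0.68 and -1.50, adjusted p = 0.219, 0.35 and 0.0585). By mean, Amlexanox lay above Control for Gfral (3.39 and 1.67 CPM) and Grp (7.06 and 2.64 CPM). The same held for Dipk1c (5.85 and 3.14 CPM) and Dcn (8.54 and 2.45 CPM), but not for Ca12 or Fcna. For none of the 6 was the difference between the responses called.

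Whether the response under amlexanox differed from that without it was tested as the difference of the log2 fold changes. Of 15890 genes, 224 had a more positive response under amlexanox (1.41%) and 68 a more negative one (0.428%). The calls rest on the spread estimated over all 48 libraries. No gene was called in a fit to the 4 groups alone, where 2147 had an unadjusted p under 0.05, and none without Control replicate 3 or Amlexanox replicate 3, while 1603 were called without Amlexanox replicate 1. Under a replicate block, 693 genes were called in the fit to all 48 libraries (473 more positive and 220 more negative) and 7 in the fit to the 4 groups alone (1 and 6). Against the mean of 3 other Tat responses (no compound, tazemetostat and senicapoc), 469 genes (2.95%) were more positive and 101 (0.636%) more negative, and again none was called in a fit to the compared groups, with or without the block, or without Amlexanox replicate 3 or Tat-Amlexanox replicate 1. These values are therefore given as levels in the 4 groups.

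**Figure D4:**
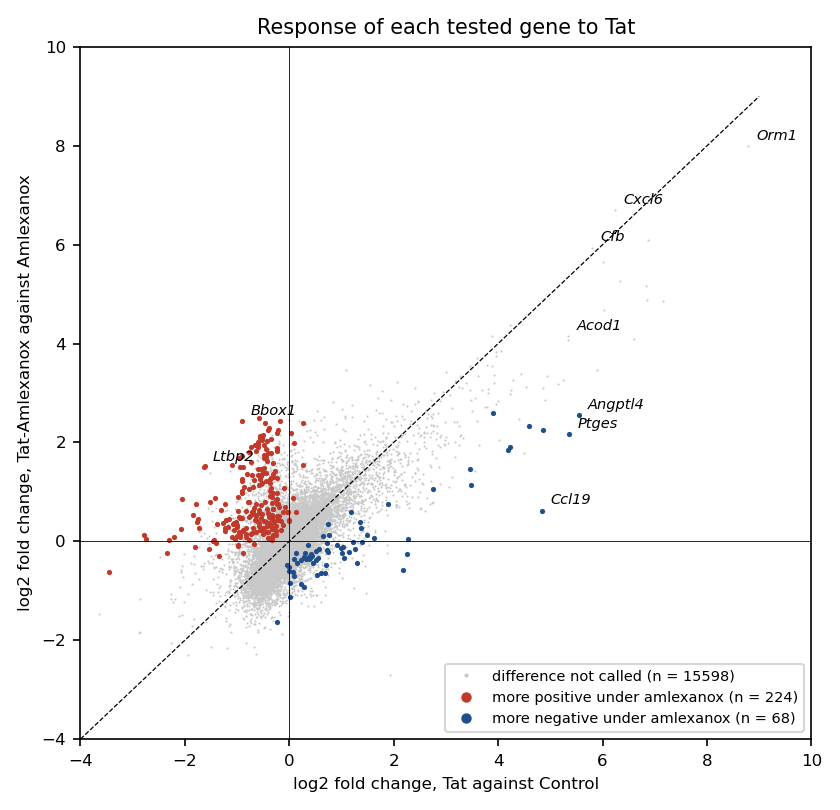
Log2 fold change of each of 15890 tested genes with Tat, without the compound on the horizontal axis and under amlexanox on the vertical axis, with a dashed line of equal change and colours for the 224 and 68 genes whose difference was called. Orm1, Cxcl6 and Cfb lie near the line, and Ccl19, Ptges and Angptl4 lie below it.

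Genes with a more negative response under amlexanox included several of inflammation. Ccl19, which attracts lymphocytes and dendritic cells to lymph nodes, was at 0.0835, 3.41 and 2.71 CPM in Amlexanox and 1.72, 2.88 and 3.05 CPM in Tat-Amlexanox, against 0.192, 2.599 and 0 CPM in Control and 8.72, 39.9 and 66.99 CPM in Tat (difference of log2 fold changes -4.22 ± 1.05 SE, adjusted p = 0.0358). Ptges, the inducible synthase of prostaglandin E, was at 0.376, 2.44 and 1.53 and 5.06, 12.99 and 5.76 CPM with the compound and 0.652, 0.834 and 0.227 and 31.8, 54.2 and 43.8 CPM without it (difference of log2 fold changes -3.20 ± 0.79 SE, adjusted p = 0.034). Angptl4, an inhibitor of lipoprotein lipase, was at 12.7, 34.3 and 29.5 and 119, 178 and 130.3 CPM, against 5.18, 10.1 and 4.68 and 229, 456 and 307 CPM (difference of log2 fold changes -3.00 ± 0.68 SE, adjusted p = 0.0239). In Ptges and Angptl4 Amlexanox lay above Control by mean and Tat-Amlexanox below Tat. RT1-Da, an MHC class II chain, was at 0.292, 1.78 and 7.72 and 8.07, 13.4 and 13.1 CPM, against 0.230, 0.441 and 0.227 and 20.2, 23.4 and 24.3 CPM (difference of log2 fold changes -2.61 ± 0.68 SE, adjusted p = 0.0416). Retn, resistin, was at 0.0418, 0 and 0 and 1.92, 4.11 and 2.14 CPM with the compound, while Control was listed at 0 throughout and Tat at 5.02, 9.196 and 7.42 CPM. Fgf10, a growth factor, was at 6.68, 5.39 and 4.42 and 3.17, 2.62 and 4.97 CPM, against 1.38, 1.52 and 0.499 and 5.02, 8.69 and 6.43 CPM (difference of log2 fold changes -2.75 ± 0.49 SE, adjusted p = 0.00882), and Alpl, alkaline phosphatase, at 1.71, 4.03 and 3.86 and 1.28, 3.23 and 3.31 CPM, against 0.997, 2.26 and 1.59 and 6.03, 8.598 and 15.2 CPM (difference of log2 fold changes -2.51 ± 0.50 SE, adjusted p = 0.0124). The groups under amlexanox overlapped for Fgf10 and Alpl. The calls of all these differences were lost in the fit to the 4 groups alone.

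Genes with a more positive response under amlexanox included several with their lowest levels in Amlexanox. Bbox1, the last enzyme of carnitine synthesis, was at 5.14, 3.297 and 0.557 CPM in Amlexanox, 19.97, 18.5 and 8.59 CPM in Tat-Amlexanox, 7.82, 17.5 and 46.6 CPM in Control and 11.7, 11.7 and 6.71 CPM in Tat (difference of log2 fold changes 3.33 ± 0.91 SE, adjusted p = 0.0475). Sult1a1, a sulfotransferase of phenols, was at 12.7, 3.36 and 2.504, 18.5, 14.6 and 12.3, 30.7, 44.03 and 74.6 and 25.4, 11.7 and 11.02 CPM in that order (difference of log2 fold changes 3.14 ± 0.67 SE, adjusted p = 0.0179). Ltbp2, a matrix protein, was at 81.3, 12.8 and 5.88, 51.8, 54.1 and 55.4, 144, 211 and 378 and 76.1, 95.2 and 53.3 CPM (difference of log2 fold changes 3.13 ± 0.76 SE, adjusted p = 0.0316). Dnah6, a dynein of the cilium, was at 8.19, 6.21 and 2.89, 29.5, 50.5 and 22.2, 15.4, 31.4 and 62.5 and 26.8, 26.6 and 12.5 CPM (difference of log2 fold changes 3.07 ± 0.79 SE, adjusted p = 0.04). In each of these the lowest value of the 12 libraries was Amlexanox replicate 3 and the highest was Control replicate 3. Sult1d1 (difference of log2 fold changes 2.92 ± 0.68 SE, adjusted p = 0.0279) fell with Tat alone and did not pass the test under amlexanox. Gmnc, a switch of multiciliated cell fate, was at 6.93, 2.09 and 1.32, 1.56, 1.54 and 1.79, 19.9, 14.7 and 27.9 and 1.12, 1.61 and 1.47 CPM (difference of log2 fold changes 2.83 ± 0.49 SE, adjusted p = 0.00882), with every library given Tat under 2 CPM. The calls of all these genes were lost in the fit to the 4 groups alone.

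**Figure D5:**
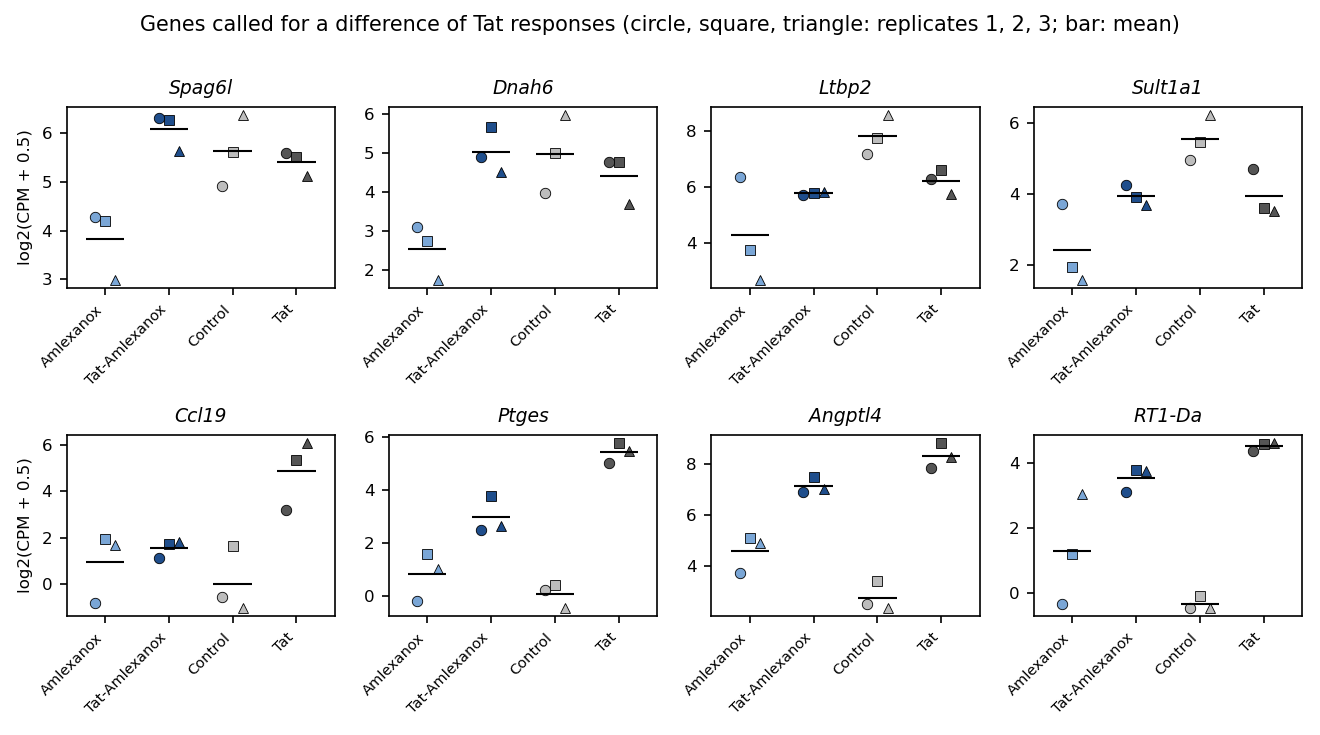
Level of 8 genes called for a difference between the Tat responses, on a log2(CPM + 0.5) axis, in each library of Amlexanox, Tat-Amlexanox, Control and Tat, with circle, square and triangle for replicates 1, 2 and 3 and a bar for the mean. In the upper row the Amlexanox mean is the lowest of the 4 groups, and in the lower row the Tat mean is the highest.

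The response under amlexanox was also read over genes picked from other libraries. Tat raised 1100 genes both under tazemetostat and under senicapoc, and those libraries do not enter the Amlexanox, Tat-Amlexanox, Control or Tat groups. Of these, 928 were called higher under amlexanox, with a median log2 fold change of 0.92, and 1031 without a compound, with a median of 1.11. Of 388 genes lowered under both of those compounds, 203 were called lower under amlexanox (median -0.345) and 301 without a compound (median -0.553). The sign of the fold change was the same under amlexanox for 1086 of the 1100 and 353 of the 388, and without a compound for 1100 and 386. In the fit to all 48 libraries the difference of the responses was called negative for 27 and positive for 0 of the 1100. Among the 388 it was called positive for 25 and negative for 1. No gene was called for this difference in the fit to the 4 groups alone.

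Levels were also read in the libraries given cocaine in addition to Tat and amlexanox. Orm1 was at 548, 556 and 399 CPM in Tat-Cocaine-Amlexanox, Cfb at 5827, 8464 and 5122 CPM and Irf7 at 335, 280.1 and 319.9 CPM, in or near the range of the Tat-Amlexanox libraries. Spag6l was at 57.7, 59.02 and 47.1 CPM and Syp at 178, 221 and 263 CPM. Ccl19 was at 2.05, 3.31 and 2.17 CPM and Ptges at 5.92, 13.7 and 4.22 CPM. Nr4a1 was at 8.49, 10.2 and 11 CPM, under every Tat-Amlexanox library (14.97, 17.6 and 23.3 CPM). These levels stand beside those of Tat-Amlexanox without a test. Tat-Amlexanox replicates 1, 2 and 3 each correlated most with the same-numbered Tat-Cocaine-Amlexanox library (0.9952, 0.9959 and 0.9938). The labels do not say that same-numbered libraries came from separate dissections, so the 2 groups may not be independent readings.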

How the data were processed

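RNA of 48 libraries (16 groups of 3) was sequenced by the authors as paired-end reads, trimmed with Trim Galore 0.4.5, aligned with STAR 2.7.2 and counted per gene with featureCounts of Subread 1.5.3, keeping uniquely mapped reads. The sources name different genome builds, so no coordinates are given for the deposited genes. The deposited values are a signal in CPM (reads of a gene per 1000000), scaled by the authors with edgeR's TMM factors. The same table holds the authors' group means, fold changes, likelihood ratios and p-values, which were not used. Because 84.5% to 87% of low values came out as whole reads within 0.02 of a read, no count test was run, and depth (about 17500000 to 29100000 reads over all libraries) is approximate.

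Here log2(CPM + 0.5) was fitted in R 4.3.3 with limma 3.58.1 (lmFit, eBayes with a trend), with 1 mean for each of 16 groups over 48 libraries, for 15890 genes at or above 0.5 CPM in at least 3 libraries. All genes were adjusted together by Benjamini-Hochberg. The fit to all groups shares 1 estimate of the spread. With 3 against 3 libraries an exact permutation test cannot go below a two-sided p of 0.1, so single genes were tested only in limma. The pipeline was tested on simulated data. Figures were drawn with Python 3.11.15 and matplotlib 3.10.9.

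Replicates of Amlexanox and Tat-Amlexanox correlated at 0.9776 to 0.9936 on the log2 scale and no pair agreed within sampling noise, so all counted as samples. Deviations of same-numbered libraries from their group means correlated at 0.221, 0.176 and 0.237, and those of other pairs at -0.222 to -0.0237. The numbers were therefore taken to pair the samples, from the data and not from the labels, but only in the fits with a replicate block. The main fit held no replicate term, so its SEs and adjusted p leave out this pairing. With the block over all 48 libraries, 7264 genes rather than 6290 were called in the Tat response under amlexanox. The differences of the responses called numbered 693 rather than 292.

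The members and the 31 gene lists were chosen with earlier results of these data known. Genes are named by rule: the 6 largest rises and falls among called genes of at least 1 CPM with groups that do not overlap, the 2 members of smallest p in each list, the 6 largest differences of responses in each direction, and a set of 15 inflammatory and cell type genes. Further members were named after their values were seen, and a few genes that the rule names are not reported here. Alternatives covered the pseudocount, the minimum level, the scaling, the libraries fitted, the trend, the replicate block and each library left out. Promoters came from RefSeq (GRCr8).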

Additional observations from a re-analysis of the deposited data

Results flagged for a closer look

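Each result here is a gene whose response to Tat differed between cultures with and without amlexanox by the test of that difference (limma, adjusted p under 0.05 over all genes). The value is the log2 fold change of Tat-Amlexanox against Amlexanox minus that of Tat against Control.

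The difference was positive for genes of motile cilia and of multiciliated cells, at 3.065 for Dnah6, 2.829 for Gmnc, 2.645 for Cfap43, 2.518 for Dnah5, 2.485 for Spag6l and 2.459 for Hydin. It was also positive for Bbox1 (3.334), Sult1a1 (3.138), Ltbp2 (3.133) and Sult1d1 (2.92). The difference was negative for the chemokine gene Ccl19 (-4.218), the prostaglandin synthase gene Ptges (-3.204), Angptl4 (-2.999) and Fgf10 (-2.755). It was also negative for the class II chain RT1-Da (-2.609), Alpl (-2.515) and the activation receptor gene Cd69 (-2.35). Smaller negative values were found for Timp1 (-1.694), Arg1 (-1.328), Retn (-1.322) and Junb (-1.152).

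Every one of these calls was lost in the fit to the 12 libraries of the 4 groups, and each was lost in 2 to 10 of the 12 fits that left out a library. With 3 libraries a group, no group was large enough to be tested for an outlying sample.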

How the results depend on the processing

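The count of genes called in the Tat response under amlexanox (6290) stayed within 1.5 times under all 11 alternatives, from 4735 in a fit to the 12 libraries of 4 groups to 7264 with the replicate block over all 48 libraries, and no named gene changed sign with a call. With single libraries left out it ran from 2971 (without Amlexanox replicate 3) to 6462, with 1910 to 3759 genes higher and 1061 to 2832 lower. It was 3706 without Tat-Amlexanox replicate 1. Quantile normalization gave 2971 higher and 3514 lower genes. The cause was not tested.

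The counts of differences were less stable. For the difference from the response without the compound (292 genes, 224 and 68), no minimum level gave 131 (105 positive and 26 negative), the fits to the compared groups or their 12 libraries gave 0 (with 2147 genes at an unadjusted p under 0.05), and the replicate block gave 7 (1 and 6) in the compared groups and 693 (473 and 220) over all 48 libraries. Leaving out a library gave 0 to 1603 genes (0 to 1012 positive and 0 to 591 negative). For the difference from 3 other responses (570 genes), no minimum level gave 294 (242 and 52), the fit to the compared groups gave 0 with or without the block, the replicate block over all 48 libraries gave 1012 (762 and 250), and leaving out a library gave 0 to 2168 (0 to 1475 positive and 0 to 693 negative). The fits with fewer libraries estimate the spread from fewer samples. The block changed no other call of the named genes than those given with their results, Aspa (adjusted p = 0.00346 and 0.0413 in its 2 forms), and the differences of responses.

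Over the named genes, 1578 of the alternatives' values for the Tat response under amlexanox kept direction and call, 24 gained the call and 27 lost it. With single libraries left out 787 kept it, 8 gained it and 99 lost it. At about 17500000 to 27600000 reads, 0.5 CPM rests on 9 to 14.4 reads, so low genes such as Retn, Selp and Il10 are the least certain.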
